A study of Mus musculus with 9 samples.

Results

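The carbonic anhydrase genes Car1, Car2, Car3, Car4, Car7, Car8, Car12 and Car13 were described in the colon of wild-type mice. They were taken as a list by gene symbol, through the Ensembl identifiers of the count files, by a rule that uses no measured value. All 8 were among the 22262 genes with a count in at least 1 library, and all 8 were among the 17441 genes tested for a difference between environments. The study placed mice in a standard environment (SE) or an enriched environment (EE) and measured messenger RNA in a 2 to 3 cm piece of the upper colon. The 9 libraries came from C57BL/6N wild-type females aged 12 months, of which 4 (WT_SE mice 1, 2, 3 and 5) lived in the standard environment and 5 (WT_EE mice 1 to 5) in the enriched environment. WT_SE mice lived in small groups in ordinary cages, and WT_EE mice lived in a larger group in a bigger cage with tunnels, climbing objects and running wheels, in both cases from weaning onward. The cage of each mouse is not given in the sources used here, so cage and environment cannot be told apart. Libraries of the other genotype were not analysed here.

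Carbonic anhydrases are enzymes that convert carbon dioxide and water into bicarbonate and a proton, and back. In the colon they supply the ions that the surface epithelium exchanges when it absorbs sodium chloride and secretes bicarbonate. The family divides by place: Car1, Car2, Car3, Car7 and Car13 lie in the cytosol, Car4 is anchored at the outer membrane face by a lipid tail, Car12 crosses the membrane with its enzyme domain outside, and Car8 is a cytosolic relative that lacks the enzyme activity and binds a receptor of calcium stores. Car3 is best known from fat, skeletal muscle and liver, Car1 and Car2 also from red blood cells, and Car7 from brain.

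Each library held 295535 to 454043 counts, where 1 count is 1 molecule tagged near the 3′ end of a transcript, so that levels of different genes were set side by side without dividing by transcript length. Counts of well-counted genes, Car2 and Car4 among them, rose less than in proportion to library size, which limits such a comparison between genes counted high and low. Levels are given as CPM, counts scaled to the same library size in every mouse, after TMM normalization, which corrects that size by the bulk of the genes. Group means carry their SD over 4 WT_SE and 5 WT_EE mice. The limit that a count of 0 allows, 3 counts, equalled 6.61 to 10.2 CPM of the library total and covers counting error only. Epithelial markers summed to 2250 to 3043 CPM in every library and surface colonocyte markers to 2214 to 3416 CPM, while skeletal muscle markers summed to at most 43.3 CPM. Genes that mark position along the gut were uneven between mice: the bile acid transporter Slc10a2 lay at 231 CPM or above in WT_SE mice 2 and 3 and WT_EE mice 1 and 3, and at 67.9 CPM or below in the other 5. Posterior Hox genes, which pattern the hind part of the body, summed to 213 to 579 CPM. WT_SE mice 1 and 3 came from libraries whose names end in L3, and the other 7 from names ending in L2. What these endings stand for is not given in the sources used here.

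Car13, Car1, Car3 and Car2 form a cluster of 4 members on chromosome 3. It ran over 259.0 kb of GRCm38 (chr3:14641727-14900770) and held the genes in that order, with Car1 on the minus strand and the other 3 on the plus strand. Coding sequences of the cluster were 62.9% (Car2 and Car13) to 67.6% (Car1 and Car13) identical over the aligned bases. Car7, on chromosome 8, shared 61.5% to 64.1% with the cluster. Car8 shared 53.9% to 55.5% with the cluster, and Car4 and Car12 shared 52.6% with each other. The last 500 bases of the 2 full-length Car1 transcripts held no run of 30 bases found in the ends of another gene's transcripts. A short Car1 model shared 157 such runs with Gm5843, a pseudogene of the cluster that had 2 counts over the 9 libraries. Car2, Car4, Car12 and Car13 shared no run with any other gene. Of the runs in their transcript ends, 12 of 1396 for Car3, 37 of 1419 for Car7 and 39 of 471 for Car8 also occurred in other genes' ends. The genes that overlapped Car1 and Car8 in the annotation had 0 counts.

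Car1 was the most abundant of the 8 in these colons and Car7 the least. Mean levels over the 9 mice were 715 CPM for Car1, 350 CPM for Car2, 325 CPM for Car4, 177 CPM for Car8, 127 CPM for Car12, 115 CPM for Car3, 32.4 CPM for Car13 and 1.90 CPM for Car7. Of the 7 neighbouring pairs in this order, 3 differed beyond the spread between mice. Car1 exceeded Car2 in 9 of 9 mice by 0.99 ± 0.40 (SD) on the log2 scale of CPM plus 1, Car4 exceeded Car8 in 9 of 9 by 1.06 ± 1.09, and Car13 exceeded Car7, which lay at or under the floor, in 9 of 9. Each gave a two-sided exact sign-flip permutation p of 0.00391, the smallest 9 mice can give, and 0.00911 after Benjamini-Hochberg adjustment over the 7 pairs. Car2 and Car4 did not differ beyond that spread (higher in 7 of 9, mean log2 ratio 0.11 ± 0.17, adjusted permutation p = 0.164), nor did Car8 and Car12 (adjusted permutation p = 0.292), Car12 and Car3 (adjusted permutation p = 0.268), or Car3 and Car13 (adjusted permutation p = 0.387).

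**Figure D1:**
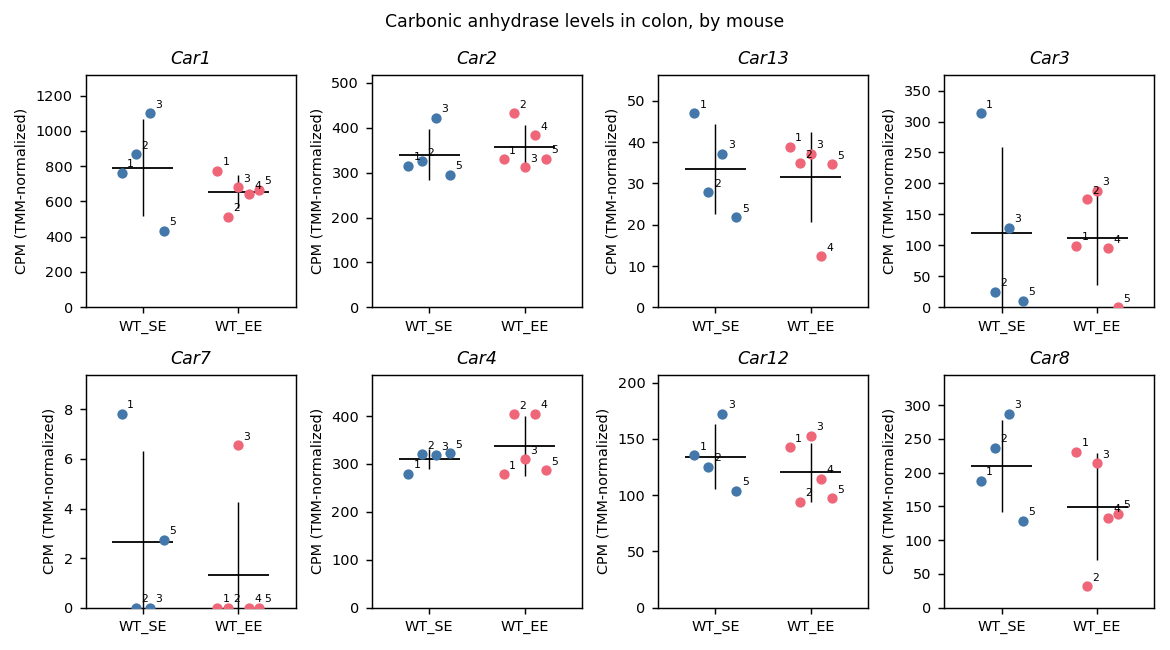
Levels of the 8 carbonic anhydrases in each colon library, as TMM-normalized CPM on linear axes that start at 0, with WT_SE in blue and WT_EE in red. Points are mice with their number, the horizontal line is the group mean and the vertical line 1 SD either way, ended at 0. The ranges of the groups overlap in every panel, and Car3 and Car8 spread the most among the genes above the count floor.

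The first question of the design was whether the environment changed these genes. None of the 8 members passed the edgeR quasi-likelihood test, either after Benjamini-Hochberg adjustment over all 17441 genes or at an unadjusted p under 0.05. The background was 0.0401% of genes called after adjustment and 7.65% at the unadjusted limit. Every member's WT_SE and WT_EE values overlapped. The share of all genes tested that overlap is not given here, so this is no result about the members. Exact permutation tests of the mean CPM gave p-values from 0.262 (Car8) to 0.937 (Car3) over the 8 members, with a smallest reachable p of 0.00794. A p above the limit does not show that the levels were equal, and the interval of each difference is given with the gene.

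Car1, the cytosolic form of colon epithelium and red cells, was encoded at chr3:14766216-14808368 (ENSMUSG00000027556). Its level was 762, 866, 1099 and 435 CPM in WT_SE mice 1, 2, 3 and 5, and 775, 512.4, 680, 640 and 666 CPM in WT_EE mice 1 to 5. WT_SE mouse 3 was the highest and WT_SE mouse 5 the lowest of all, so the WT_EE mice lay inside the range of the standard group. Standard mice averaged 790 ± 276 CPM and enriched mice 655 ± 94.5 CPM. The log2 fold change, WT_EE over WT_SE here and throughout, was -0.26 with an SE of 0.16 and a 95% interval from -0.59 to 0.07 (edgeR, Benjamini-Hochberg adjusted p = 0.742). The coefficient of variation over the 9 mice was 27.3%, against 6.12% from counting alone. The fold change was -0.46 without WT_SE mouse 5, -0.05 without WT_SE mouse 3, and 0.03 with only the 7 libraries ending in L2. Red blood cell markers moved with Car1 (Spearman rho 0.85 over 9 mice, exact permutation p = 0.00607, adjusted p = 0.0496 over 98 relations, Pearson r 0.69, exact permutation p = 0.0386, adjusted p = 0.210, r 0.69 without WT_EE mice 2 and 4). Within the 7 libraries ending in L2 the rho was 0.75 and did not pass (exact permutation p = 0.0663, adjusted p = 0.0723 over 12 relations). These 12 were the 9 marker relations, Slc10a2 left out, that passed by rank over all 9 mice. The pairs among Car1, Car8 and Car12 made up the rest. As the 7 libraries are part of the 9, results within them are no separate test, here and below. The red blood cell markers summed to 186 to 304 CPM in WT_SE and 130 to 244 CPM in WT_EE, and 6 of the 7 had a count. Of the defining genes, Hbb-bs had 17 to 51 counts per library, Alas2 0 to 3, and Slc4a1 had none in any library. The part of red cells in the Car1 level was not tested.

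Car2, the most widely expressed cytosolic form, lay at the other end of the cluster from Car13 (chr3:14886273-14900770, ENSMUSG00000027562). Its level was 316, 326, 423 and 295 CPM in WT_SE mice 1, 2, 3 and 5, and 330, 432, 313, 383 and 331 CPM in WT_EE mice 1 to 5. WT_EE mouse 2, WT_SE mouse 3 and WT_EE mouse 4 stood highest, and they had the 3 smallest libraries of the 9. Group averages of 340 ± 56.7 and 358 ± 49.3 CPM gave a log2 fold change of 0.07 with an SE of 0.14 and a 95% interval from -0.21 to 0.35 (edgeR, Benjamini-Hochberg adjusted p = 0.942).

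Car13, a minor cytosolic form at the far end of the cluster (chr3:14641727-14663002, ENSMUSG00000027555), had 4 to 18 counts per library. Its level was 47.0, 27.8, 37.2 and 21.9 CPM in WT_SE mice 1, 2, 3 and 5, and 38.9, 34.9, 37.2, 12.4 and 34.7 CPM in WT_EE mice 1 to 5. WT_EE mouse 4 was the lowest and the other values of that group lay close together. The log2 fold change was -0.05 with an SE of 0.32 and a 95% interval from -0.71 to 0.61 (edgeR, Benjamini-Hochberg adjusted p = 0.984). Counting alone would give Car13 a coefficient of variation of 28.5%, and the observed value was 31.7%.

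Car3, the cytosolic form typical of fat and muscle (chr3:14863512-14872523, ENSMUSG00000027559), was the most uneven of the genes above the floor. Its level was 313, 25.1, 129 and 10.9 CPM in WT_SE mice 1, 2, 3 and 5, and 99.3, 174, 188 and 95.9 CPM in WT_EE mice 1 to 4. WT_EE mouse 5 had 0 Car3 counts, which allows up to 7.04 CPM. Both environments held mice with high and with very low values. The coefficient of variation over the 9 mice was 87.5%, against 15.3% from counting alone. Group averages of 119 ± 139 and 111 ± 75.2 CPM gave a log2 fold change of -0.14 with an SE of 0.48 and a 95% interval from -1.11 to 0.83 (edgeR, Benjamini-Hochberg adjusted p = 0.965). This estimate rested on WT_SE mouse 1: without it the log2 fold change was 1.097, and without both WT_SE mice of libraries ending in L3 it was 2.61.

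Markers of fat cells moved with Car3. The 9 adipocyte markers summed to 125 to 1169 CPM in WT_SE and 171 to 617 CPM in WT_EE, all 9 had a count in at least 1 library, and 0 of them were called between the environments after adjustment (permutation p = 0.810 for the summed level). Adipoq, the hormone adiponectin, had 70, 0, 15 and 0 counts in WT_SE mice 1, 2, 3 and 5 and 7, 9, 29, 7 and 0 counts in WT_EE mice 1 to 5. The 3 libraries without an Adipoq count, WT_SE mice 2 and 5 and WT_EE mouse 5, were the 3 lowest in Car3, with 9, 4 and 0 counts, and they also had 0 counts of Cfd, the adipocyte protease adipsin. Across the 9 mice Car3 and the summed markers gave a Spearman rho of 0.90 (exact permutation p = 0.00203, adjusted p = 0.0331 over 98 relations) and a Pearson r of 0.79 (exact permutation p = 0.00661, adjusted p = 0.0810, and r 0.86 without WT_SE mice 1 and 2). Within the 7 libraries ending in L2 the rho was 0.786 (exact permutation p = 0.0480, adjusted p = 0.0640 over 12 relations). With the summed adipocyte level as a covariate the log2 fold change of Car3 was 0.39, and without the 3 libraries that lack Adipoq it was -0.70. Skeletal muscle markers, of which 5 of 8 had a count, stayed at 12.95 to 43.3 CPM. In whole tissue, fewer cells of a type and less RNA per cell cannot be told apart, here and for every gene that follows.

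**Figure D2:**
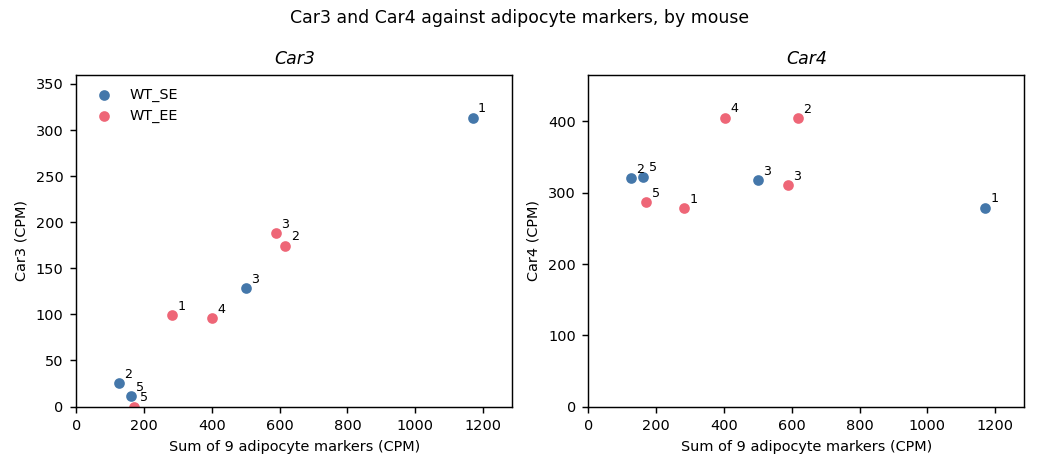
Car3 (left) and Car4 (right) in CPM against the summed CPM of 9 adipocyte markers, on linear axes from 0, with each point 1 mouse labelled by its number, WT_SE in blue and WT_EE in red. WT_SE mouse 1 lies at 1169 CPM of adipocyte markers and 313 CPM of Car3, WT_SE mice 2 and 5 and WT_EE mouse 5 lie at the lower left, and Car4 stays between 279 and 405 CPM over the whole range.

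Car7 (chr8:104534689-104550343, ENSMUSG00000031883) was at or below the floor of 3 counts in every library. It had 3 counts in WT_SE mouse 1, 1 in WT_SE mouse 5 and 3 in WT_EE mouse 3, and 0 in the other 6. No fold change is given for it.

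Car4 and Car12 are the 2 members with the enzyme on the outer face of the membrane, and of the members above the floor they alone had a promoter window in RefSeq. RefSeq promoter windows of GRCm38.p6 matched 3 of the 8 members by symbol (Car4, Car7 and Car12). The 250 bases before the start of Car4 (chr11:84957504-84957753, plus strand) and of Car12 (chr9:66713436-66713685, plus strand) are shown. The coefficient of variation over the 9 mice was 14.9% for Car4 and 21.1% for Car12, against 9.15% and 14.5% from counting alone. As shares of the summed count of the 8 members, Car4 ran from 12.9% to 24.4% and Car12 from 5.59% to 8.05%. Capitals mark the one match found, a GC box in Car12.

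Car4: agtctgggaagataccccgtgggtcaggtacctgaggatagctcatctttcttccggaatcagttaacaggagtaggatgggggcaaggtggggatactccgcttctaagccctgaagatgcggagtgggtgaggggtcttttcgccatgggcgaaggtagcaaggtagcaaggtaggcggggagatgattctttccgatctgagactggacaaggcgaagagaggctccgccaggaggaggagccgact
Car12: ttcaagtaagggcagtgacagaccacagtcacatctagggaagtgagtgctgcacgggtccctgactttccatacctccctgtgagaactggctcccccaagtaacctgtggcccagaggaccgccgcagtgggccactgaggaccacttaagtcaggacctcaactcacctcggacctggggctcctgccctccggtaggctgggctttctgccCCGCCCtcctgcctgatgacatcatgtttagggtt

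Motifs were searched on both strands: TTTATG, the core letters of sites for CDX factors, AGATAA, typical of sites for GATA factors, GGGCGG, known as the GC box, CCAAT, known as the CCAAT box, TATAAA, known as the TATA box, and CACGTG, known as an E-box. The Car4 window held none of these letters, and the Car12 window held the GC box once, on the reverse strand, starting 35 bases before the transcript start. Of 32851 windows of the same length over all genes, 32.7% held the GC box, 10.8% the CDX letters, 9.99% the GATA letters, 33.8% the CCAAT box, 12.4% the TATA box and 6.02% the E-box. The match overlapped no other motif. GC content was 56.4% for Car4 and 59.2% for Car12, against a median of 52.4% over all windows, and the windows held 11 and 6 CpG dinucleotides against a median of 6.

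Car4, the lipid-anchored form of the brush border (chr11:84957786-84966044, ENSMUSG00000000805), had 94 to 142 counts per library. Its level was 279, 320, 318 and 323 CPM in WT_SE mice 1, 2, 3 and 5, and 279, 404, 310, 405 and 287 CPM in WT_EE mice 1 to 5. The 4 standard mice lay close together, and WT_EE mice 2 and 4 stood above all others. Standard mice averaged 310 ± 20.5 CPM against 337 ± 62.9 CPM in enriched mice, and the log2 fold change was 0.11 with an SE of 0.14 and a 95% interval from -0.18 to 0.39 (edgeR, Benjamini-Hochberg adjusted p = 0.915). Car4 and Car2 were the steadiest members, with coefficients of variation of 14.9% and 14.3%, against 9.15% and 8.82% from counting alone. WT_EE mice 2 and 4 were also the 2 libraries highest in smooth muscle markers, at 3224 and 3182 CPM against 1753 to 2315 CPM in the other 7, and had the first and the third smallest totals of the 9.

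Levels of well-counted genes moved with library size. Summed counts of the 940 genes averaging 80 to 160 counts per library rose with the library total by a log-log slope of 0.551, against 1.30 to 1.35 for genes whose means lay between 5 and 40 counts, and the highest count of any gene was 1177 to 1393 in every library. Car1, Car2 and Car4 belong to the well-counted genes of 80 to 400 counts. Counts of Car2 and Car4 rose with the library total by slopes of 0.439 and 0.487, but those of Car1 by 1.05. The slopes were 1.28 for Car12, 1.71 for Car13, 2.83 for Car8 and -1.86 for Car3. When libraries were scaled by genes averaging 80 to 400 counts, the coefficients of variation of Car2 and Car4 fell to 9.25% and 8.15%, close to counting alone, while those of Car1 (28.7%), Car8 (45.4%) and Car12 (25.5%) stayed at or above their values of 27.3%, 43.5% and 21.1%.

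Car12, the membrane-spanning form (chr9:66713686-66766845, ENSMUSG00000032373), had 27 to 70 counts per library. Its level was 136, 125, 172 and 104 CPM in WT_SE mice 1, 2, 3 and 5, and 142, 94.1, 153, 114 and 97.2 CPM in WT_EE mice 1 to 5. WT_SE mouse 3 was again the highest and WT_EE mouse 2 the lowest. Standard mice averaged 134 ± 28.7 CPM against 120 ± 26.5 CPM in enriched mice, and the log2 fold change was -0.13 with an SE of 0.18 and a 95% interval from -0.49 to 0.24 (edgeR, Benjamini-Hochberg adjusted p = 0.915). The coefficient of variation was 21.1%, against 14.5% from counting alone.

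Car8, the relative without enzyme activity (chr4:8143362-8239041, minus strand, ENSMUSG00000041261), varied more than any other member present in all 9 libraries. Its level was 188, 237, 287 and 128 CPM in WT_SE mice 1, 2, 3 and 5, and 231, 31.4, 214, 133 and 139 CPM in WT_EE mice 1 to 5. WT_EE mouse 2, with 9 counts, stood far below the rest, and the highest library exceeded it 9.16-fold. The coefficient of variation was 43.5%, against 12.2% from counting alone. Standard mice averaged 210 ± 67.9 CPM against 150 ± 79.3 CPM in enriched mice, and the log2 fold change was -0.41 with an SE of 0.24 and a 95% interval from -0.91 to 0.08 (edgeR, Benjamini-Hochberg adjusted p = 0.714). It was -0.19 without WT_EE mouse 2, -0.23 without WT_SE mouse 3, -0.61 without WT_EE mouse 1, -0.21 with only the libraries ending in L2 and -0.09 with Slc10a2 as a covariate.

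**Figure D3:**
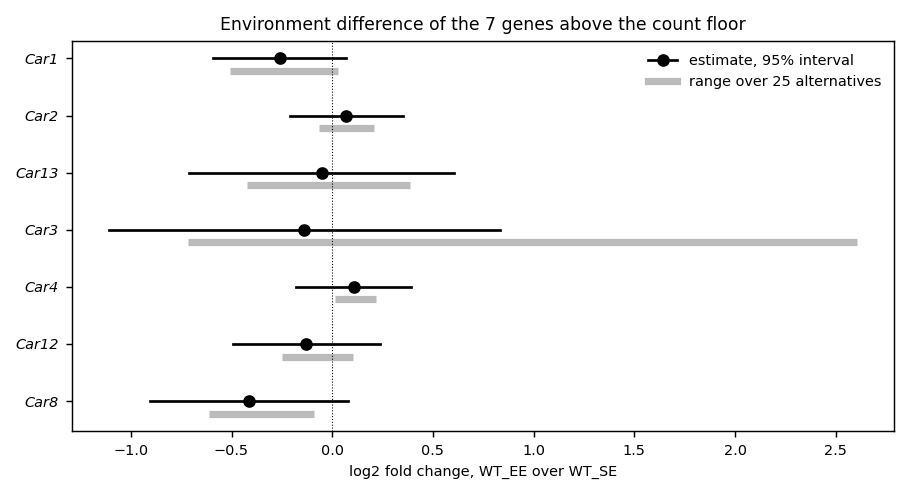
Log2 fold change of WT_EE over WT_SE for the 7 members above the count floor, from edgeR's quasi-likelihood fit, with black points for the estimate, black lines for its 95% interval and grey bars for the range of estimates over 25 alternative settings. All 7 intervals include 0, and the grey bar of Car3 reaches from -0.72 to 2.61 while that of Car4 stays between 0.01 and 0.22.

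The members did not vary as 1 family between mice. Car1 and Car8 ranked the mice in nearly the same order (Spearman rho 0.97, exact permutation p = 0.000165, adjusted p = 0.00347 over 21 pairs of members), the only pair of 21 that passed by rank. Their Pearson r was 0.71 (exact permutation p = 0.0366, adjusted p = 0.227), 0.90 without WT_SE mice 3 and 5, 0.99 within the 4 WT_SE mice and 0.96 within the 5 WT_EE mice. Within the 7 libraries ending in L2 their rho was 0.964 (exact permutation p = 0.00278, adjusted p = 0.0167 over 12 relations). Car8 and Car12 gave r 0.78 (exact permutation p = 0.00380, adjusted p = 0.0798) and rho 0.83 (exact permutation p = 0.00827, adjusted p = 0.0868), and no pair passed by Pearson r. With scaling by well-counted genes, 3 pairs passed by Pearson r: Car1 and Car8 (r 0.81), Car1 and Car12 (r 0.83), and Car8 and Car12 (r 0.86). Over the 9 mice Car2 and Car4 gave r of 0.22 and -0.38 to Car1 and -0.42 and -0.66 to Car8, none past the limit. The r of Car2 was 0.82 to Car1 and 0.85 to Car8 within the 4 WT_SE mice and -0.85 and -0.90 within the 5 WT_EE mice, and the difference was not tested. With well-counted scaling the r of Car2 to Car1 was 0.50 over the 9 mice, 0.91 within WT_SE and -0.076 within WT_EE. That of Car2 to Car8 was -0.014, 0.92 and -0.36 in the same order. Car4 then gave r of -0.40 to Car1 and -0.45 to Car8 over the 9 mice. The negative values of Car2 thus depended on the scaling.

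Car1, Car8 and Car12 fell as the summed level of the posterior Hox genes rose. For the front of the gut a single gene, Slc10a2, was read, and it is described below without a correlation. The summed level of 9 posterior Hox genes was 376, 276, 213 and 506 CPM in WT_SE mice 1, 2, 3 and 5 and 341, 579, 304, 486 and 426 CPM in WT_EE mice 1 to 5. Hoxa10 had 14 to 83 counts per library, and Hoxd12 had none in any. Not all members ran the same way: Hoxd10 stood at 61.3 and 27.1 CPM in WT_SE mice 2 and 3, which were low in the sum, and at 0 counts in WT_SE mouse 5 and WT_EE mice 2 and 4, which were high in it, and Hoxd11 was highest in WT_SE mice 2 and 3 (78.0 and 54.1 CPM). The summed level gave an exact permutation p of 0.310 between environments. Car8 fell as it rose, with rho -0.98 (exact permutation p = 5e-05, adjusted p = 0.00486 over 98 relations) and r -0.82 (exact permutation p = 0.00334, adjusted p = 0.0546, and r -0.95 without WT_SE mouse 3 and WT_EE mouse 2). Car1 gave rho -0.93 (exact permutation p = 0.00075, adjusted p = 0.0184) and r -0.90 (exact permutation p = 0.00102, adjusted p = 0.0332). Car12 gave rho -0.85 (exact permutation p = 0.00607, adjusted p = 0.0496) and r -0.87 (exact permutation p = 0.00289, adjusted p = 0.0546). Within the 7 libraries ending in L2 the rho was -0.964 for Car8, -0.929 for Car1 and -0.786 for Car12, with adjusted exact permutation p-values of 0.0167, 0.0202 and 0.0640. These relations were picked for passing over all 9 mice, which include the 7, so this is no separate test.

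Slc10a2 split the mice into separate levels, so its correlations with the members over all 9 are not used. It stood at 67.9, 287, 372 and 43.7 CPM in WT_SE mice 1, 2, 3 and 5 and at 231, 10.5, 256, 12.4 and 23.1 CPM in WT_EE mice 1 to 5. The 4 mice with the most Slc10a2 were also the 4 with the most Car8, and 3 of them were among the 4 highest in each of Car1, Car12 and Car13. The count was 2 for Car3. Only 1 of the 4 was among the 4 highest in Car4 and 1 in Car2. The overlap that chance alone would give was not computed, so these counts are a description. Hoxb13, a gene of the hind end of the body, had 56 counts in WT_SE mouse 5 and 45 in WT_EE mouse 2, the 2 mice lowest in Car1. It had 0 counts in WT_SE mice 2 and 3 and WT_EE mouse 1, which were the 3 highest in Car1 and in Car8. Whether the colon pieces came from different positions was not tested.

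**Figure D4:**
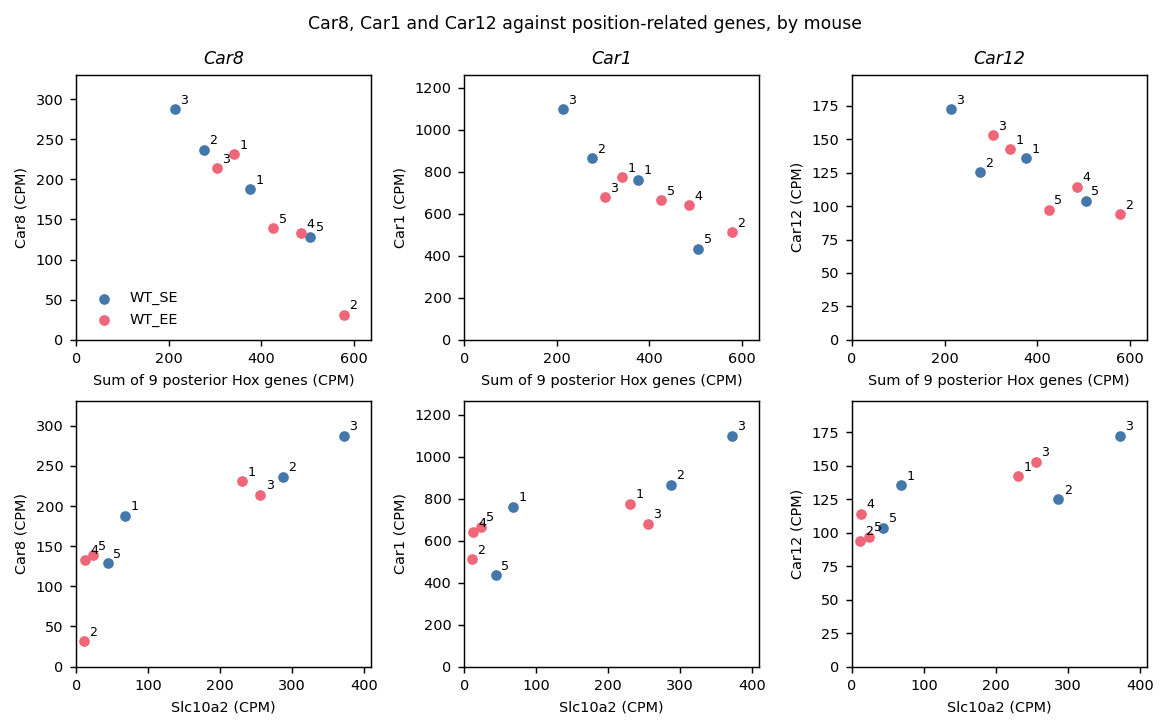
Car8, Car1 and Car12 in CPM against the summed CPM of 9 posterior Hox genes (upper row) and against Slc10a2 (lower row), on linear axes from 0, with each point 1 mouse labelled by its number, WT_SE in blue and WT_EE in red. In the upper row all 3 genes fall from WT_SE mouse 3 at 213 CPM of Hox genes towards WT_EE mouse 2 at 579 CPM, and in the lower row the mice at 231 CPM or more of Slc10a2 stand apart from those at 67.9 CPM or less.

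Other marker lists moved with the same members, but the lists were not independent of each other. WT_EE mice 2 and 4 and WT_SE mouse 5 stood highest in the posterior Hox, endothelial and surface colonocyte sums alike. WT_SE mice 2 and 3 stood lowest in the posterior Hox and endothelial sums and highest in red blood cell markers and Slc10a2. The relations of Car1 and Car8 below therefore overlap with those of posterior Hox genes and are not separate results. Relations of 7 members with 14 lists were computed, 98 in all, and p-values were adjusted over them. The 3 lists whose values split as widely as those of Slc10a2 or more (Slc10a2 itself, smooth muscle and skeletal muscle markers) are left out here, and of the other 77 relations 1 passed by Pearson r (Car1 with posterior Hox genes) and 9 by Spearman rho. That limit was set from these data. Surface colonocyte markers lay just under it, with a widest inner gap of 0.333 of their log2 range against 0.349 for Slc10a2. No mouse stood between 2473 and 2858 CPM of their sum. Over all 98 relations 3 passed by Pearson r and 12 by Spearman rho. Those left out were Slc10a2 with Car8 by both, Slc10a2 with Car1 and Car12 by rank, and smooth muscle markers with Car8 by Pearson r. Car8 fell with smooth muscle markers (r -0.82, exact permutation p = 0.000876, adjusted p = 0.0332, and r -0.83 without WT_EE mice 2 and 4). By rank this relation did not pass (rho -0.83, exact permutation p = 0.00827, adjusted p = 0.0623). Among the 9 by rank, Car8 fell with surface colonocyte markers (rho -0.88, exact permutation p = 0.00308, adjusted p = 0.0377) and with endothelial markers (rho -0.93, exact permutation p = 0.00075, adjusted p = 0.0184), and rose with red blood cell markers (rho 0.90, exact permutation p = 0.00203, adjusted p = 0.0331). Within the 7 libraries ending in L2 these were rho -0.929, -0.893 and 0.821, with adjusted exact permutation p-values of 0.0202, 0.0295 and 0.0585, so the relation with red cell markers did not pass there. All 3 had been picked for passing over the full set of mice, of which the L2 libraries are a part. Car1 also fell with endothelial markers (rho -0.88, exact permutation p = 0.00308, adjusted p = 0.0377, and -0.857 with an adjusted p of 0.0476 in the L2 libraries). Endothelial markers summed to 108 to 229 CPM, with Kdr at 18 to 45 and Pecam1 at 7 to 25 counts per library. Not all genes of this list ran with the sum. Tek, at 1 to 5 counts per library, stood at 13.9 CPM in WT_SE mouse 2 and 3.49 CPM in WT_EE mouse 2, the lowest in Car8. Cldn5 had 4 counts in all. Of the surface colonocyte markers, the water channel Aqp8 ranged from 2 counts in WT_SE mouse 3, the mouse highest in Car8, to 111 counts in WT_EE mouse 4, while Ms4a12 of the same list ran the other way, with 54.1 CPM in WT_SE mouse 3 and 6.19 CPM in WT_EE mouse 4. None of the 14 lists differed between environments in its summed level (smallest permutation p = 0.111). The part of these cells in the levels of Car1 and Car8 was not tested.

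A share of the summed count of the family needs no scaling between libraries. It can still move with depth, because the members rose unlike with the library total (slopes 0.439 for Car2 and 2.83 for Car8). The 8 genes had 483 to 878 counts together per library. Car1 made up 30.4% to 44.9% of them, Car2 15.4% to 25.7%, Car4 12.9% to 24.4%, Car12 5.59% to 8.05%, Car13 0.693% to 2.29% and Car3 0% to 15.3%, where the 0 of 672 counts in WT_EE mouse 5 allow a share of up to 0.446%. Car8 made up 7.45% to 12.3% in 8 libraries and 1.86% in WT_EE mouse 2 (95% Wilson interval 0.983% to 3.50%, counting error only). No share differed between environments by the exact permutation test. The p-values ran from 0.302 for Car2 (18.0% ± 3.03 in WT_SE, n = 4, and 20.5% ± 3.68 in WT_EE, n = 5, SD) to 0.984 for Car3 over the 8 permutation tests.

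**Figure D5:**
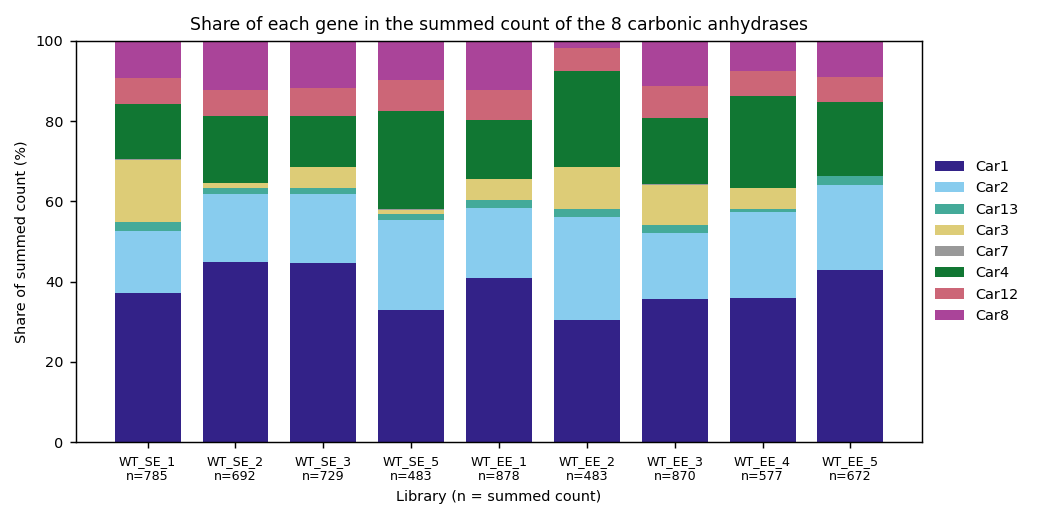
Share of each of the 8 members in their summed count, in percent, as 1 stacked bar per library with the summed count under it. Car1 is the largest part of every bar, Car3 ranges from absent in WT_EE_5 to 15.3% in WT_SE_1, and Car8 is a thin slice in WT_EE_2.

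The genes most alike in pattern were found among 8493 genes with a mean of at least 10 counts, by Pearson r of log2(CPM + 1) over the 9 libraries, as a description without a test. For Car1 they were Ireb2 (r 0.96), Cluh (r 0.95) and Nsfl1c (r 0.95), and for Car8 they were Aco1 (r 0.97), Hsd17b13 (r 0.96) and Abhd16a (r 0.96). Ireb2 and Aco1 both encode iron regulatory proteins. For Car12 they were Hoxb7 (r 0.96), Hoxb8 (r 0.94) and Creg1 (r 0.94). Hoxb7 ranged from 6.97 to 94.7 CPM and Hoxb8 from 10.5 to 196 CPM over the mice. For Car3 they were Tyk2 (r 0.90, but Spearman rho 0.50), Phtf1 (r 0.89, rho 0.93) and Cfd (r 0.88, rho 0.97), and Cfd is also on the adipocyte list. The genes closest to Car4 were Rpsa, Blmh and Ppm1b (r 0.98, 0.97 and 0.96), those closest to Car2 were Itga6, Hdac9 and Dera (r 0.94, 0.94 and 0.93), and those closest to Car13 were Tmem220, Ralb and Mettl14 (r 0.96, 0.93 and 0.93). The points are the same 9 mice for every gene, with the same differences in depth.

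Of the other carbonic anhydrase genes, only Car9, a membrane form induced by low oxygen, was above the floor in every library. Its 9 to 31 counts per standard mouse and 15 to 42 per enriched mouse came to 56.8 ± 20.7 and 70.8 ± 19.98 CPM. The log2 fold change was 0.30 with an SE of 0.25 (edgeR, Benjamini-Hochberg adjusted p = 0.832). Car5b had 0 to 6 counts per library, Car11 0 to 5 and Car14 0 to 5. Car5a had 1 count in all, and Car6, Car10 and Car15 had none.

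Genes that move bicarbonate and protons together with these enzymes were read from the same fit. Of 24 listed genes 23 had a count and 20 were tested. None passed after adjustment, against 7 of all 17441 genes, and at an unadjusted p under 0.05 there was 1 higher and 2 lower in WT_EE, against 751 higher and 583 lower among all genes. Their median log2 fold change was -0.02, against 0.01 over all genes tested. The gene higher was Atp12a, a proton and potassium pump, with 0 to 5 counts per standard mouse and 2 to 25 per enriched mouse (log2 fold change 2.32 with an SE of 0.72, adjusted p = 0.248). The 25, 14 and 12 counts of WT_EE mice 2, 4 and 3 carried it, and 2 counts stood in each of the other WT_EE mice. The genes lower were the sodium bicarbonate cotransporter Slc4a4, at 201 ± 48.4 CPM in WT_SE and 156 ± 14.7 CPM in WT_EE (log2 fold change -0.34 with an SE of 0.16, adjusted p = 0.599), and the chloride and bicarbonate channel Cftr, at 216 ± 33.8 and 164 ± 47.4 CPM (log2 fold change -0.37 with an SE of 0.17, adjusted p = 0.595). WT_EE mouse 2, the lowest in Car8, was also the lowest in both, with 38 counts of Slc4a4 and 27 of Cftr.

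The 6 best-counted genes of that list had log2 fold changes between -0.09 and 0.00 or were the ones named above. The chloride bicarbonate exchanger Slc26a3 had 98 to 169 counts per standard mouse and 125 to 160 per enriched mouse (log2 fold change 0.00 with an SE of 0.17), and the regulator Ahcyl2 gave -0.09, the bicarbonate cotransporter Slc4a7 -0.06, the lactate and proton carrier Slc16a1 -0.01 and the sodium proton exchanger Slc9a2 -0.09. Ahcyl1, named after its values were seen, stood at 199 ± 15.01 CPM in standard and 162 ± 17.7 CPM in enriched mice without overlap (exact permutation p = 0.00794, unadjusted over the list). Its log2 fold change was -0.29 (edgeR, Benjamini-Hochberg adjusted p = 0.659). How many of all genes lack overlap is not given here, so the separation of Ahcyl1 has no background to set it against.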

How the data were processed

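Colon RNA of 9 wild-type mice was counted. Per the labels, reads from QuantSeq 3′ libraries were trimmed with fastp 0.20.0, aligned to GRCm38.p6 with STAR 2.7.0f, assigned to genes with featureCounts 1.6.0 and collapsed by molecular identifier with UMI-tools. The methods of the study name another STAR version. The authors deposited whole molecule counts per gene and library, without normalization, and genes missing from a file were taken as 0.

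Genes at 4 CPM or more in at least 1 library (17441) were tested with edgeR 4.0.16 (TMM, quasi-likelihood F test, environment as the only term) and Benjamini-Hochberg adjustment over all of them. The limits of 4 CPM and of p 0.05 are those of the study. Its methods leave out transcripts below 4 CPM in at least 1 sample, which can be read as a stricter filter than this one. Single values were compared by two-sided exact permutation over 126 splits, and neighbours in level by exact sign flips within mice. Relations across mice used log2(CPM + 1) and all pairings of the 9 mice. The edgeR fit was tested on simulated counts that rose in proportion to library size. Python 3.11.15, numpy 2.4.6, pandas 2.3.3, scipy 1.17.1 and R 4.3.3 were used.

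Library totals were 295535 to 454043 counts, and the counting error of each member above the floor is given as a coefficient of variation. Chi-square per degree of freedom between libraries of a group was 1.19 or more, so none was taken as a duplicate. Whether the mice came from separate cages or litters is not given, and p-values measure the spread between these libraries. The members, gene lists and tests were chosen with earlier results of these data known. Named besides the members were the other carbonic anhydrase genes, bicarbonate and proton transport genes at an unadjusted p under 0.05 or among the 6 best counted, the 3 genes most like each member, and marker genes of lists that move with a member. Promoter windows came from RefSeq (GRCm38.p6), positions and transcripts from GENCODE vM21. Protein sequences were not used here. The alternatives were other filters, normalizations and tests (DESeq2 1.42.0, limma-voom), blocking on mouse number, the ending of the library name, and each mouse left out. The well-counted scaling, both covariates of marker level, and leaving out libraries by Hoxb13 or Adipoq were chosen after seeing the data. A mouse number names different animals in WT_SE and WT_EE.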

Additional observations from a re-analysis of the deposited data

Results flagged for a closer look

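Within a group, 6 values lay far from the others of that group by Dixon's criterion at the 95% level, among 44 groups of values looked at. Chance gives about 1 in 20 for separate values, but these are not all separate. The level and the share of Car7, and those of Car13, rest on the same counts. A lone count among zeros, as for Car7, is flagged in any case. Car4 in WT_SE mouse 1 was 279 CPM, below 318 to 323 CPM in the other 3 mice of that group, and close to the lowest WT_EE mouse. Car13 in WT_EE mouse 4 was 12.4 CPM (4 counts), and its share of the summed carbonic anhydrase count was 0.693%. Car7 in WT_EE mouse 3 was 6.56 CPM (3 counts, at the floor), a share of 0.345%, where the other 4 mice of the group had 0. Hoxb13 in WT_SE mouse 5 was 153 CPM (56 counts), against 0 to 4 counts in the other 3. That library was also the lowest in Car1 and, within its group, in Car8 and Car12.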

How the results depend on the processing

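No carbonic anhydrase had an adjusted p under 0.05 in any of the 25 alternatives. At the unadjusted limit, where 0 of the 8 were called, 1 was called with no filter, with the L2 or L3 ending as a covariate, with only the L2 libraries and with the replicate block, and 2 without the libraries highest in Hoxb13 and without those lacking Adipoq. Leaving out each mouse gave 0 to 2, with 2 without WT_SE mouse 5. Over all genes, 7.65% passed at that limit in the reported fit and 1577 of 22262 genes with no filter, and counts for the ending settings are given below. They are not given for the replicate block, the libraries left out by Hoxb13 or Adipoq, or single mice left out. Calls of 1 or 2 of the 8 are therefore no result about the members. The estimates of Car8 stayed below 0 in all 25, from -0.61 to -0.09, with an unadjusted p under 0.05 in 6 of them. Those of Car4 stayed above 0, from 0.01 to 0.22. The causes of these changes were not tested.

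Some log2 fold changes turned direction, none past the limit after adjustment. With the ending as a covariate they were 0.016 (Car1), 2.59 (Car3), 0.091 (Car12) and 0.37 (Car13), and with only L2 libraries 0.030, 2.61, 0.10 and 0.39. The reversed Car3 estimate is the 1 call at the unadjusted limit in both settings (edgeR unadjusted p = 0.000131 and 0.000588). CPM differences (WT_EE minus WT_SE) in the L2 libraries were 4.45, 93.5, 5.65 and 6.73 CPM for the same genes. With Slc10a2 as a covariate Car12 was 0.029 and Car13 0.060, and with adipocyte markers Car3 was 0.39. Car2 was -0.065 without the libraries highest in Hoxb13 and -0.023 without those lacking Adipoq. As a log2 ratio to the other members, the share of Car3 differed by -0.11. Leaving out each mouse gave -0.52 to 1.097 for Car3, -0.23 to 0.013 for Car12 and -0.21 to 0.18 for Car13. It gave CPM differences of -0.591 to 45.6 for Car2, -44.1 to 56.7 for Car3, -5.75 to 2.92 for Car13 and -254 to -32.9 for Car1, and share differences of -1.10 to 3.72 percentage points for Car3. Without WT_SE mouse 5 the Car1 difference passed an exact permutation test (-254 CPM, p = 0.0357, p not adjusted), so that 0 to 1 members passed such tests.

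Of the bicarbonate and proton transport genes, 3 passed at the unadjusted limit in the reported fit, 1 with DESeq2, with either use of the ending, with well-counted scaling and with Slc10a2 as a covariate, and 1 to 5 when each mouse was left out. After adjustment 0 passed, 1 with no filter, and 0 to 1 when each mouse was left out (1 without WT_EE mouse 1). Among all genes 1334 of 17441 passed at the unadjusted limit, 804 with filterByExpr, 643 with DESeq2, 688 with the ending as a covariate and 680 in the L2 libraries. The number of genes tested differs between filters and is not given for these alternatives, so their counts are not shares. Pairs of members passing by Pearson r numbered 0, 1 with library totals only and 3 with well-counted scaling.

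Mice of the same number deviated together only weakly (r -0.02, 0.05, 0.11 and 0.13 for mice 1, 2, 3 and 5 over 8493 genes), and only WT_SE mouse 5 correlated best with its own number. In the fit with the replicate block, 1 member was called at the unadjusted limit (Car8, log2 fold change -0.44), and Car3 was 0.033 and Car13 0.13.

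Depth limits Car7, at or under 3 counts in every library, and Car13, whose spread is near that of counting. The exact tests over splits of 4 against 5 mice cannot go below 0.00794.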
